A study of Mus musculus with 10 samples.

Results

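The comparison set splenic pre-cDC2 from mice lacking ADAM10 in CD11c-expressing cells against pre-cDC2 from wild-type mice. It rested on 4 of the 10 RNA sequencing libraries of the series, chosen by their cell type label. They were replicates 2 and 3 of wild type (WT) and replicates 1 and 2 of the deletion (KO). Of the 52550 genes in the deposited table, the 12856 with a value above 0 log2 RPKM in at least 2 of the 4 libraries were described. RPKM is the read count scaled to gene length and library size, so a value of 0 log2 RPKM equals 1 RPKM. The mice were of the C57BL/6 strain. KO mice carried CD11c-cre and Adam10fl/fl, so that the CD11c promoter drives a Cre recombinase that excises the floxed segment of Adam10 in cells using this promoter. WT mice are labelled only as WT, and the labels used here give no age or treatment and do not say that replicates were separate animals. The p-values below therefore measure only the spread between libraries, which may be technical.

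Conventional dendritic cells (cDCs) take up and present antigen to T cells, and in the spleen they arise from committed precursors, of which pre-cDC2 give rise to the cDC2 lineage. Their development depends on the receptor FLT3 and its ligand FLT3L, and the factors IRF4, ZEB2 and KLF4 and, for ESAM-bearing splenic cDC2, the receptor NOTCH2 act in the cDC2 branch. ADAM10 is a membrane protease that cuts the outer part of surface proteins free, among them Notch receptors after ligand binding, and the study, by its title, deals with the shedding of FLT3L by this protease.

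The 4 libraries held 7862449 to 13177686 recovered reads and were not alike in the cells their RNA came from. The 21 tested T cell markers averaged 2.24 log2 RPKM in WT replicate 2, but 6.56 in WT replicate 3 and, in KO, 6.10 in replicate 1 and 6.05 in replicate 2. For the 21 NK cell markers the means were 1.45 in WT replicate 2 and 5.80 in WT replicate 3, against 5.70 and 5.64 in KO. The 26 tested genes of the cDC2 programme averaged 5.14 in WT replicate 2 and 4.28 in WT replicate 3, against 4.49 and 4.54 in KO. In 3 of the 4 libraries, T and NK cell markers thus stood above the genes that define the labelled cell, and in WT replicate 2 they stood below. Every T cell marker had reads in every library, and 1 NK cell marker had none in WT replicate 2. The cDC2 lectin gene Clec4a4 did not pass the filter, with 9 reads in WT replicate 2 and 0 in each of the others. Across the 12856 genes, WT replicate 2 correlated with the other libraries at r = 0.732 to 0.777, while the other 3 correlated with each other at 0.859 to 0.885. These r values describe gene levels, and genes are not independent replicates. More genes lay over 1 log2 apart between the WT libraries (4091, or 31.8%) than between the KO libraries (1673, or 13%). Each result below is therefore given against both WT libraries, and in bulk RNA fewer cells of a type and less RNA per cell cannot be told apart.

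**Figure D1:**
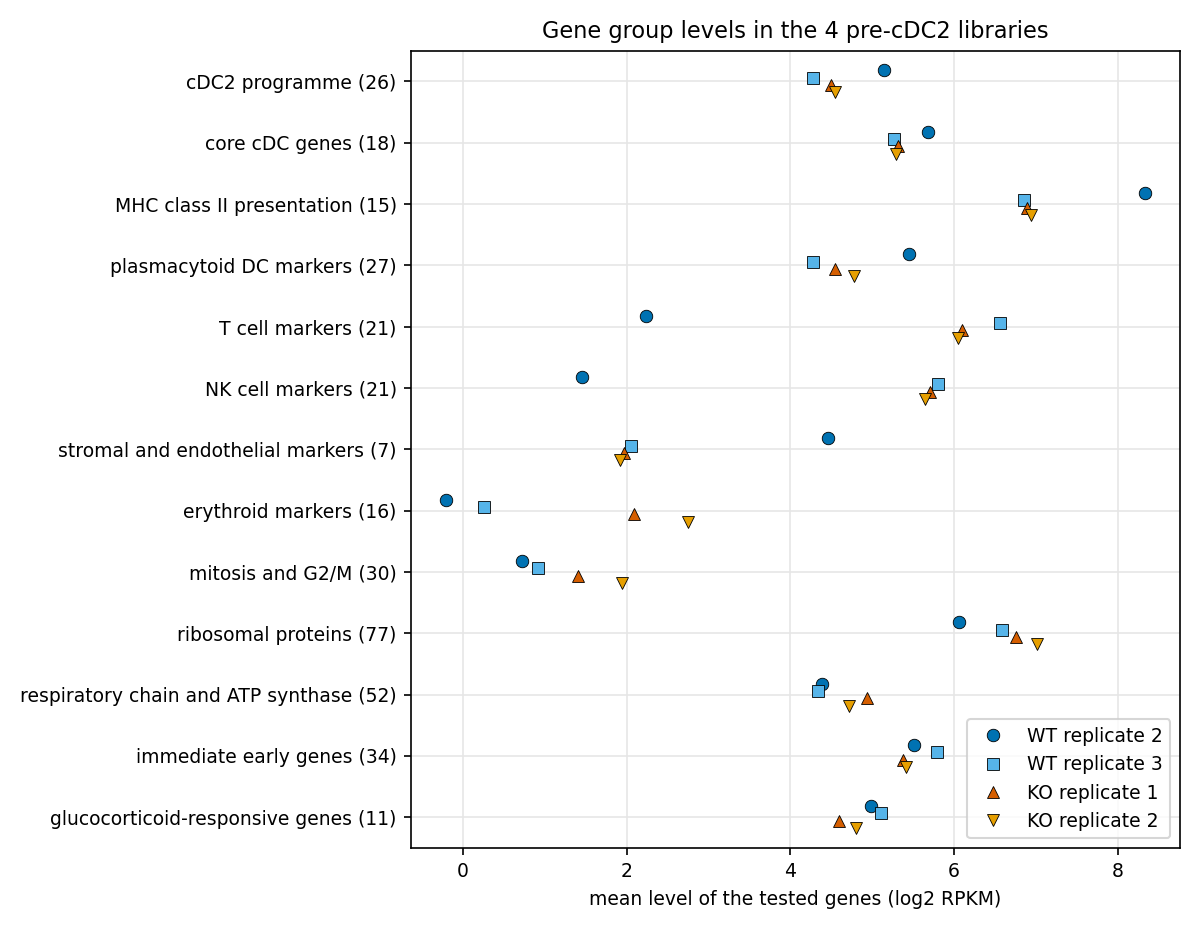
Mean level in log2 RPKM of 13 gene groups (rows, with the number of tested genes) in each library, 1 symbol per library. WT replicate 2 stands apart in dendritic cell, T cell, NK cell and endothelial genes, while both KO libraries lie above both WT libraries for erythroid, mitosis, ribosomal and respiratory genes.

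Adam10 (ENSMUSG00000054693.14, chromosome 9, 70678997 to 70780229, plus strand, GRCm38) was at 1.76 log2 RPKM in WT replicate 2, 4.53 in WT replicate 3, 4.24 in KO replicate 1 and 4.11 in KO replicate 2. Both KO libraries lay above the first WT library and below the second. KO minus WT was 1.03 ± 0.98 (SE, n = 2 and 2), and it was -0.35 against WT replicate 3 alone. The gene-level value counts exons outside the deleted segment too, and is therefore no check of the deletion. Adam17, which encodes the related sheddase, was at 4.30 and 4.23 in WT and 4.51 and 4.11 in KO, with groups that overlapped.

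No gene passed limma's test at an adjusted p of 0.05, 0 of 12856 in either direction (0% called). The smallest adjusted p was 0.0504, for an immunoglobulin V segment without a read in WT. Unadjusted p-values below 0.05 numbered 432, with 275 higher (2.14%) and 157 lower (1.22%), against 643 that chance would give. With voom on the recovered reads, 375 genes had an unadjusted p below 0.05 and none was called. Without WT replicate 3, limma called 380 genes higher and 48 lower, and without any other single library it called 0. Values are therefore described rather than called. For 78 of the genes named here with values, none an immunoglobulin V segment, limma adjusted p-values were 0.965 to 0.995. Both KO libraries lay above both WT libraries for 2075 genes (16.1%) and below both for 1926 (15.0%). This split turned to 1851 above and 2172 below after quantile normalization, and to 1827 and 2215 after centring on library medians, which shifted the median of all differences by -0.05 and -0.06 log2. After centring on the cDC2 list, 1882 lay above and 917 below. At least 1 log2 parted the lowest library of one genotype from the highest of the other, called separated below, for 212 genes higher in KO (1.65%) and 123 lower (0.957%). After quantile normalization these were 170 and 171. Both KO libraries were at least 1 log2 above WT replicate 2 for 1672 genes (13%) and above WT replicate 3 for 654 (5.09%), and at least 1 log2 below for 791 (6.15%) and 357 (2.78%).

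The receptors and transcription factors of dendritic cell development lay between the WT libraries in KO. Flt3 (chromosome 5, 147330741 to 147400489) was at 7.47 log2 RPKM in WT replicate 2 and 5.79 in WT replicate 3, and at 6.46 and 6.39 in KO. Both KO libraries were below the first and above the second WT library, so that KO minus WT was -0.21 ± 0.62, made up of -1.05 against replicate 2 and 0.63 against replicate 3. Flt3l, the gene of the ligand, differed from this pattern. It was at 1.29 and 2.42 in WT and 2.67 and 2.66 in KO. KO lay above both WT libraries, by 1.38 over replicate 2 but by 0.24 over replicate 3.

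Csf1r, Csf2rb and Kit had the same order as Flt3, while Il3ra, the IL-3 receptor alpha chain, was below both WT libraries, at 3.78 and 3.18 in WT and 2.61 and 3.01 in KO. Csf1r, the receptor of macrophage colony-stimulating factor, was at 6.08 and 4.08 in WT and 4.82 and 5.02 in KO. Csf2rb, the shared beta chain of the GM-CSF and IL-3 receptors, was at 6.26 and 4.46 in WT and 5.27 and 5.32 in KO. Kit, the stem cell factor receptor, was at 3.91 and 2.42 in WT and 2.85 and 2.96 in KO. For Csf1r, Csf2rb and Kit, KO minus WT replicate 3 was 0.49 to 0.84 log2 and KO minus WT replicate 2 was -1.16 to -0.96. Of the 28 tested genes of FLT3 and growth-factor receptor signalling, 2 lay above both WT libraries (7.14%, background 16.1%) and 1 below both (3.57%, background 15.0%). The list's median KO minus WT was 0.02 log2, beside 0.02 over all genes.

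Among the lineage factors, Irf4 was at 5.81 and 4.11 log2 RPKM in WT against 4.76 and 5.07 in KO. Zeb2 was at 4.46 and 2.89 in WT and 3.65 and 3.48 in KO. Klf4 was at 6.33 and 4.73 in WT and 5.09 and 4.83 in KO. These 3 cDC2 factors, with Irf8, which acts in cDC1 and plasmacytoid cells, and Zbtb46, a factor that marks cDCs, each had both KO libraries between the WT libraries. Irf8 was at 8.18 and 6.89 in WT and 7.22 and 7.16 in KO, and Zbtb46 at 4.99 and 3.78 in WT and 4.08 and 3.95 in KO. The surface markers Sirpa (0.47), Cx3cr1 (0.34) and Cd209a (0.11) were likewise above WT replicate 3, given as KO minus that library in log2, while KO minus WT replicate 2 was -1.58 to -1.06. Itgax, which encodes CD11c and whose promoter drives the Cre, was at 6.46 and 5.96 in WT and 6.42 and 6.51 in KO. Ly6c2, part of the Ly6C antigen that the sample titles name, was at 9.22 and 9.62 in WT and 9.23 and 9.43 in KO, with overlapping groups.

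**Figure D2:**
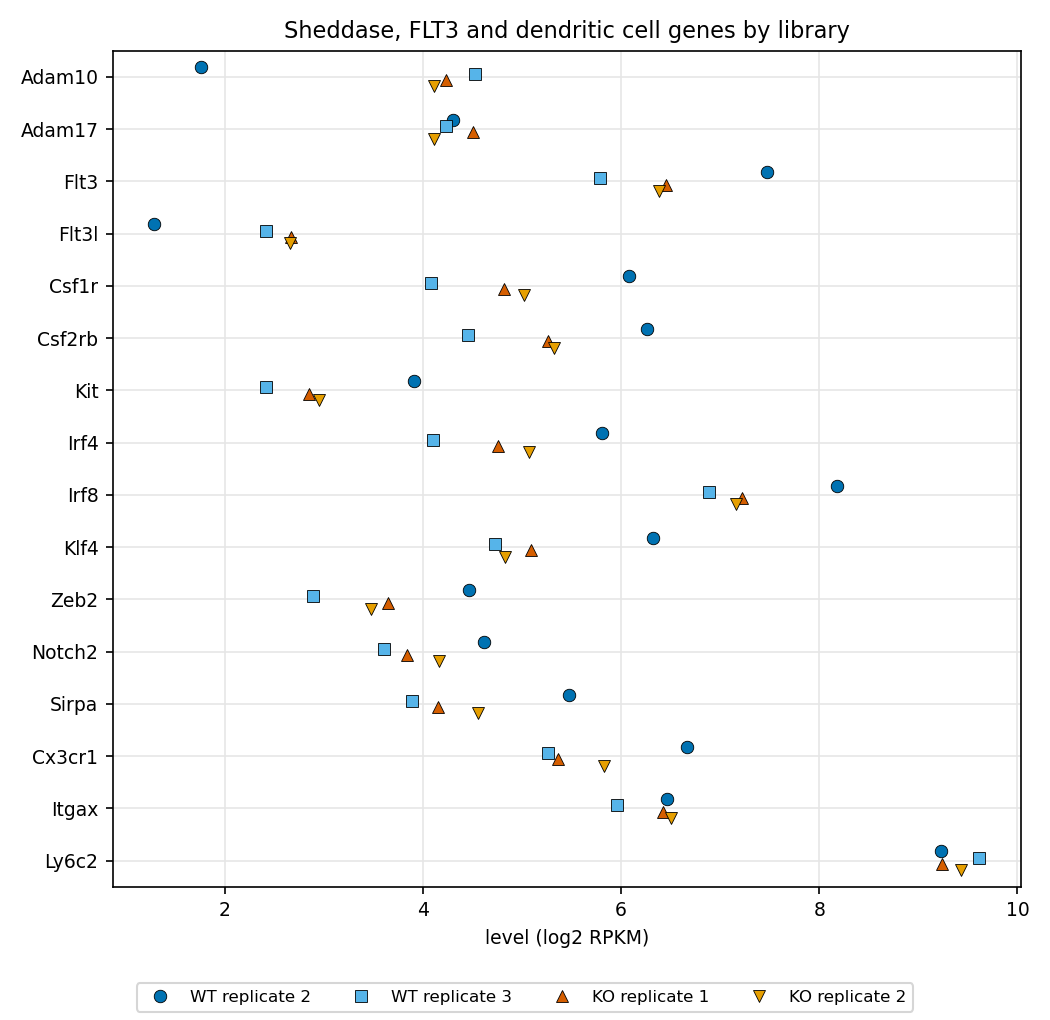
Level in log2 RPKM of 16 genes (rows) in each library. For Flt3, Csf1r, Csf2rb, Kit, Irf4, Irf8, Klf4, Zeb2, Notch2, Sirpa and Cx3cr1 both KO symbols lie between WT replicate 3 on the left and WT replicate 2 on the right, while for Adam10 WT replicate 2 is the low library.

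As a whole, the 26 cDC2 genes had a median KO minus WT of -0.20 log2, with -1.04 against WT replicate 2 and 0.25 against WT replicate 3. Only Esam and Clec12a (7.69%, background 15.0%) lay below both WT libraries, and none lay above both. Esam, the adhesion molecule of Notch2-dependent splenic cDC2, was at 4.96 and 1.95 log2 RPKM in WT against 0.68 and 1.34 in KO. KO was the lower in each pair of libraries, by less than the 1 log2 set for separated genes where WT replicate 3 is set against KO replicate 2. Esam is also an endothelial gene, and the 7 tested stromal and endothelial markers averaged 4.46 in WT replicate 2 and 2.05 in WT replicate 3, against 1.96 and 1.92 in KO. The part of such RNA in the Esam values was not tested. Notch2 itself was at 4.62 and 3.61 in WT and 3.84 and 4.16 in KO. Notch1 was at 2.18 and 2.75 in WT and 1.65 and 2.23 in KO, where replicate 2 of KO overlapped WT. Of 21 tested Notch pathway genes, 3 lay above both WT libraries (14.3%, background 16.1%) and 1 below both (4.76%, background 15.0%), so the share above was near that of all genes. Those above were the gamma-secretase subunits Psen2 and Psenen and the ubiquitin ligase gene Itch. Id3, an inhibitor of E proteins, was below both WT libraries, at 4.94 and 4.17 in WT and 3.23 and 3.60 in KO (-1.14 ± 0.36).

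By at least 1 log2, antigen presentation genes were low against 1 WT library only. All 15 tested genes of MHC class II presentation had a negative KO minus WT, with a median of -0.73 log2, and for 12 both KO libraries lay at least 1 log2 below WT replicate 2 (background 6.15%). Against WT replicate 3 none was 1 log2 lower and the median was 0.02. H2-Aa, the class II alpha chain, was at 10.69 log2 RPKM in WT replicate 2 and 9.02 in WT replicate 3, and at 8.77 and 9.01 in KO. H2-Eb1, a beta chain, was at 10.58 and 8.84 in WT and 8.54 and 8.79 in KO. Both genes lay below both WT libraries, with H2-Oa and H2-Ob the only others of the 15. These 4 made up 26.7% (background 15.0%), but KO minus WT replicate 3 was only -0.13 for H2-Aa and -0.17 for H2-Eb1.

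The lymphocyte genes showed the opposite split. For all 21 T cell markers both KO libraries were at least 1 log2 above WT replicate 2, and the KO mean was below WT replicate 3 for all 21, with medians of 3.77 and -0.46. Lck, the kinase of the T cell receptor complex, was at 4.24 and 8.41 log2 RPKM in WT against 8.40 and 8.11 in KO. Of 21 NK cell markers, 20 were at least 1 log2 above WT replicate 2, and the list's median was 4.38 against that library and -0.14 against WT replicate 3. Klra8, which encodes an activating NK receptor, was at -0.08 and 5.19 in WT and 5.58 and 5.66 in KO. It was 1 of 5 NK markers (23.8%, background 16.1%) above both WT libraries, by 0.43 over replicate 3. Id2, which both cDC1 and innate lymphocytes use, was at 3.02 and 6.37 in WT and 6.29 and 5.88 in KO. A wide gap of the same kind was that of Gpr15, a homing receptor of T cells, with 2 reads in WT replicate 2 and 434, 495 and 401 in the others. On the other side stood matrix and vessel genes such as Sparc, with 2670 reads in WT replicate 2 and 172 in WT replicate 3, against 105 and 97 in KO.

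**Figure D3:**
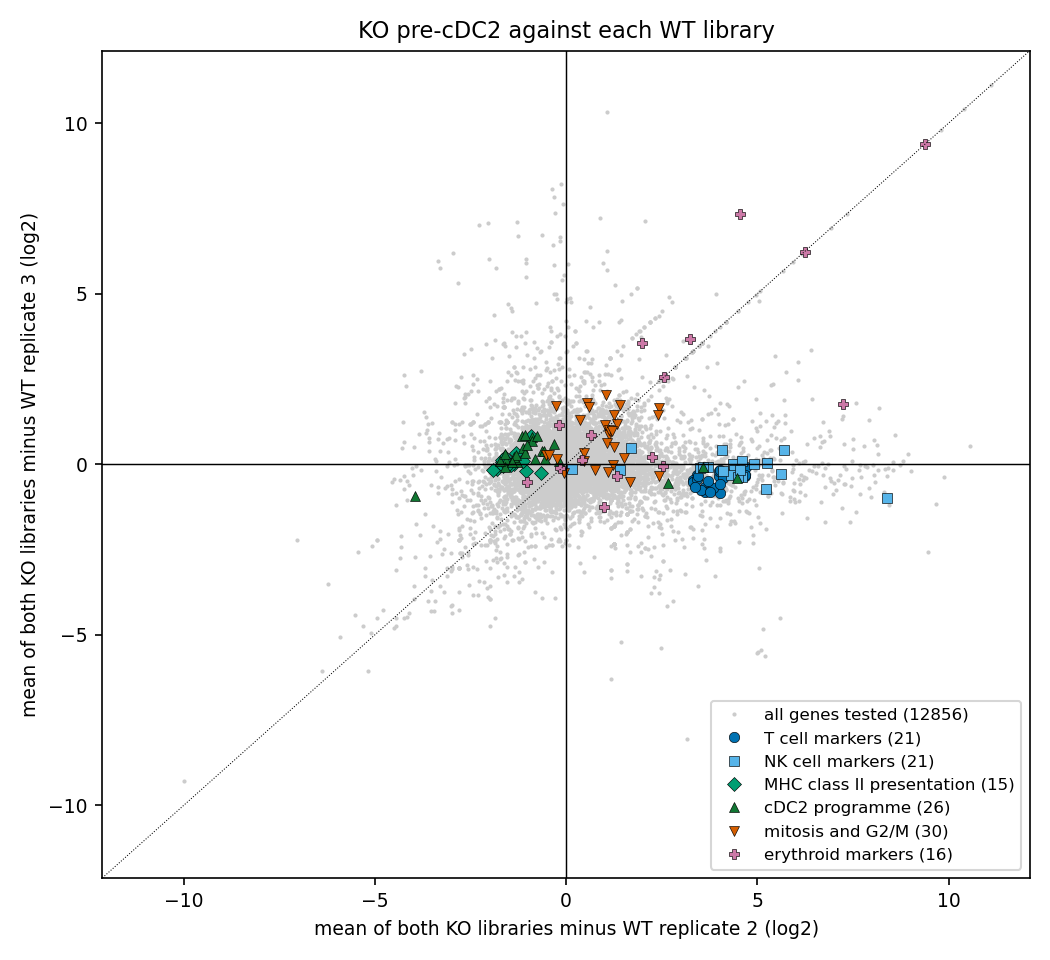
Each point is 1 tested gene, with the mean of both KO libraries minus WT replicate 2 (log2) on the x axis and minus WT replicate 3 on the y axis. The dotted line marks equal differences from both. T and NK cell genes spread along the x axis near 0 on the y axis. All MHC class II genes and 23 of the 26 cDC2 genes lie left of 0. Erythroid and mitosis genes lie mostly in the upper right.

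Red-cell transcripts were among the groups that held against both WT libraries. Of 16 tested erythroid markers, 9 lay above both WT libraries (56.2%, background 16.1%), 7 of them separated (background 1.65%), and 2 lay below both. The median KO minus WT was 1.23 log2, with 2.10 against WT replicate 2 and 1.00 against WT replicate 3. It was 0.37 over the members above 1 log2 RPKM in at least 3 libraries, a filter that leaves out members high in KO alone. Hba-a1, an adult alpha globin (chromosome 11, 32283511 to 32284465), had 20 and 12 reads in WT against 99 and 170 in KO. Its levels were 0.87 and 0.44 log2 RPKM in WT against 3.64 and 4.59 in KO, a difference of 3.46 ± 0.45. Hbb-bs, an adult beta globin (chromosome 7, 103826534 to 103828096), had 17 and 14 reads in WT against 55 and 87 in KO, which was 2.56 ± 0.41 log2 higher in KO. Both KO libraries were high and KO replicate 2 the higher for each. Hba-a2 and Hbb-bt, near-identical copies of these genes whose reads could be shared between them, were separated too. Slc4a1, the anion exchanger of the red-cell membrane, had no read in either WT library but 100 and 230 reads in KO libraries, at least 74.9-fold higher against a floor of 3 reads per library. Klf1, the erythroid transcription factor, had 0 and 12 reads in WT against 38 and 31 in KO. These are small counts, and the list's reads made up 0.0492% and 0.0363% of the WT libraries and 0.0418% and 0.0571% of the KO libraries. Not all members shared this direction: Mkrn1 and Fech, which other cells use as well, lay below both WT libraries. Hba-a2, Hbb-bt, Slc4a1 and Klf1 passed the main filter through the KO libraries only. Red pulp macrophage markers, of the cells that clear red cells, averaged 1.79 and 1.24 log2 RPKM in WT against 0.77 and 0.52 in KO. Their reads made up 0.0132% and 0.00712% of the WT libraries and 0.00776% and 0.00913% of the KO libraries. Both KO shares were above that of WT replicate 3. Of the 18 markers 10 were tested, and Spic and Vcam1 were among those below the filter. Of these 10, 4 lay below both WT libraries (40.0%, background 15.0%). Hpgd, a prostaglandin dehydrogenase, was at 1.85 and 1.14 in WT and -1.19 and -0.67 in KO. Hpgd and Fcna (21 and 29 reads in WT, 7 and 0 in KO) were separated and passed the filter through the WT libraries only.

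The stretches of 250 bases before the RefSeq start of Hba-a1 and Hbb-bs are shown because both transcripts stood higher in each KO library. They come from RefSeq (GRCm38.p6), whose starts for both genes lie inside the GENCODE gene spans given above, so that part of each stretch is within the annotated gene there. They read 5′ to 3′ on the gene's strand, with capitals for CACCC, the core bound by KLF factors, and AGATAA, of the kind that GATA factors bind, each searched on both strands with no overlap between them.
Hba-a1, chr11:32283422-32283671, plus strand: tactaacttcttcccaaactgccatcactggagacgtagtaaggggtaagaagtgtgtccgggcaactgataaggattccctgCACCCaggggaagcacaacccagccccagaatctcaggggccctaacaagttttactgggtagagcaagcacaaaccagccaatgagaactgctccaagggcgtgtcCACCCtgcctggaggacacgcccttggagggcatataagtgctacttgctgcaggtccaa
Hbb-bs, chr7:103827929-103828178, minus strand: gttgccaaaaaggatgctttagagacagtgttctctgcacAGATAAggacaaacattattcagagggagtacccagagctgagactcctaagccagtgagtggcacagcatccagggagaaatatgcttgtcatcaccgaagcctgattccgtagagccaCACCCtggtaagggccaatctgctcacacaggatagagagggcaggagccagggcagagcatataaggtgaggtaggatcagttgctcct
Hba-a1 held CACCC 2 times and Hbb-bs 1 time, and Hbb-bs also held AGATAA 1 time. The Hba-a1 stretch also holds TGATAA, which differs from AGATAA in its first base and was not searched. Over 27025 RefSeq promoters of the same length, 51.3% held CACCC and 10.3% AGATAA in either direction. Among the 10 erythroid list genes with an entry, 7 held CACCC and 2 held AGATAA. A match describes the letters and is not a measured binding site.

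Genes of mitosis were higher in both KO libraries. Of 30 tested genes of mitosis and the G2/M phase, 16 lay above both WT libraries (53.3%, background 16.1%) and none below both. The list's median KO minus WT was 0.94 log2, with 1.10 against WT replicate 2 and 0.89 against WT replicate 3, and 0.58 with 1 RPKM added before the log2. The list's mean level was 0.72 and 0.91 log2 RPKM in WT against 1.40 and 1.94 in KO. Its 4 separated members, of 30 tested (background 1.65%), were Tpx2, Kif20a, Nusap1 and Hmmr, all of which build or move the spindle. Hmmr was at -2.28 and -1.32 in WT and 0.02 and 0.22 in KO, and passed the filter through the KO libraries only. Tpx2, the activator of Aurora A kinase (chromosome 2, 152847964 to 152895321), was at 0.51 and 0.16 in WT and 1.91 and 1.92 in KO, a difference of 1.58 ± 0.41. Kif20a, a motor protein of cell division, was at -0.78 and 0.00 in WT and 1.19 and 2.10 in KO. Both had the KO libraries well apart from the WT libraries, on 30 to 172 reads per library. Tacc3, a spindle microtubule protein, was at 1.93 and 2.03 in WT and 2.90 and 3.17 in KO. Top2a, the topoisomerase of dividing cells, was at 1.68 and 1.95 in WT and 2.50 and 3.12 in KO. Mki67, the gene of the proliferation antigen Ki-67, was at 0.74 and 0.95 in WT and 1.51 and 2.22 in KO. KO replicate 2 was the highest library for all 3. Foxm1, the transcription factor of G2/M genes, is in none of the lists and was picked with its values in view. It was at -1.01 and -0.21 in WT and 1.47 and 0.83 in KO, and passed the filter through the KO libraries only.

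Genes of S phase and DNA replication held less against the second WT library. Of 34 tested, 10 lay above both WT libraries (29.4%, background 16.1%) and none below both (background 15.0%), and the median was 0.94 log2 against WT replicate 2 but 0.02 against WT replicate 3. Rrm2, the regulated subunit of ribonucleotide reductase, was at 1.65 and 1.70 log2 RPKM in WT against 2.81 and 3.23 in KO (1.35 ± 0.31). Its partner Rrm1 was at 2.15 and 2.22 in WT and 3.36 and 2.89 in KO. Cdc6, which loads the replicative helicase, was at -1.24 and -0.30 in WT and 0.88 and 0.76 in KO, and passed the filter through the KO libraries only. All 3 were higher in both KO libraries than in either WT library, as were Mcm2, Mcm3 and Mcm6 of that helicase. The libraries with mitosis genes high were also those with red-cell genes high, and the part of dividing erythroid cells or of lymphocytes in these values was not tested.

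Of the separated mitosis genes, Nusap1 and Hmmr have an entry in the RefSeq promoter table, and Tpx2 and Kif20a have none. Their 250 bases before the start are shown, in GRCm38.p6, with capitals for the CCAAT box and for TTTGAA, the core of the cell-cycle homology region, on either strand and with no overlap.
Hmmr, chr11:40733438-40733687, minus strand: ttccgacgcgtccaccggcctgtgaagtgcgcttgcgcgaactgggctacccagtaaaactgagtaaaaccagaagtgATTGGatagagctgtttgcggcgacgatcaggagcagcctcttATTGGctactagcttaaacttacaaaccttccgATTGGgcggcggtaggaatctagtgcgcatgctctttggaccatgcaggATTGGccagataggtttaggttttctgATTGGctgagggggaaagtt
Nusap1, chr2:119618048-119618297, plus strand: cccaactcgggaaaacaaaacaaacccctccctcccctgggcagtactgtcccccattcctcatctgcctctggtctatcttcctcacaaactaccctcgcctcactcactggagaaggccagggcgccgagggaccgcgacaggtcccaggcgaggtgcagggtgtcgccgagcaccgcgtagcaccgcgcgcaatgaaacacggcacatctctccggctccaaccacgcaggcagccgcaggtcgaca
Hmmr held the CCAAT box 5 times, each in the reverse direction as ATTGG, and Nusap1 held neither motif. Of the 26 tested mitosis genes with an entry, 21 (80.8%) held a CCAAT box and 9 (34.6%) held TTTGAA. Over all 27025 promoters the shares were 34.5% and 16.3%. The counts describe sequence, and no binding was measured here.

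Most of the tested ribosomal protein genes and most of the respiratory chain genes lay above both WT libraries. Of 77 ribosomal protein genes 47 did so (61.0%, background 16.1%), and 2, Rpl13a and Rplp0, lay below both. Of 52 genes of the respiratory chain and ATP synthase 32 did so (61.5%), and 9 lay below both (17.3%, background 15.0%). Median differences were 0.63 and 0.53 log2, with 0.88 and 0.58 against WT replicate 2 and 0.38 and 0.55 against WT replicate 3. As shares of all reads the lists differed less. Ribosomal genes made up 2.06% and 3.24% in WT against 2.82% and 3.29% in KO, with KO replicate 1 below WT replicate 3. Respiratory genes made up 0.516% and 0.497% in WT against 0.52% and 0.526% in KO. Rps21, of the small ribosomal subunit (chromosome 2, 180257377 to 180258445), was at 3.31 and 3.52 log2 RPKM in WT against 4.85 and 5.29 in KO (1.65 ± 0.27). Rps28 was at 5.19 and 5.24 in WT and 6.38 and 6.43 in KO, and Rpl38, of the large subunit, at 4.16 and 4.88 in WT and 6.04 and 5.94 in KO. These were the 3 separated ribosomal genes, and pseudogene copies may share reads with genes of this family. Ndufb4, a subunit of respiratory complex I, was at 1.81 and 1.92 in WT and 2.96 and 2.99 in KO. Cox6a1, of cytochrome c oxidase, was at 5.24 and 5.06 in WT and 6.42 and 6.00 in KO. Ndufs6, also of complex I, was at 2.65 and 2.81 in WT and 4.15 and 3.68 in KO. Each had both KO libraries above both WT libraries by more than the spread within either pair. The mitochondrially encoded mt-Nd3 was separated on 4 and 6 reads in WT against 20 and 16 in KO.

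Gene length moved with these groups. Among protein-coding genes outside both lists, 35.4% of the 285 with at most 1000 bases of exon lay above both WT libraries, with a median KO minus WT of 0.39 log2. Of the 1164 such genes of over 1000 and up to 2000 bases 11.7% did so, with a median of -0.14. Within the respiratory list, 26 of 32 genes of up to 2000 bases lay above both WT libraries, with a median of 0.75, and 6 of 20 longer ones, with a median of -0.08. Within the ribosomal list, 31 of 44 genes of up to 2000 bases did so, with a median of 0.80, and 16 of 33 longer ones, with a median of 0.46. Against WT replicate 3 alone the longer ribosomal genes had a median of 0.18. The mitosis genes had the other pattern: 28 of the 30 were longer than 2000 bases, and these 28 had a median of 1.01. The part of short transcripts in the recovery of each library was not tested.

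**Figure D4:**
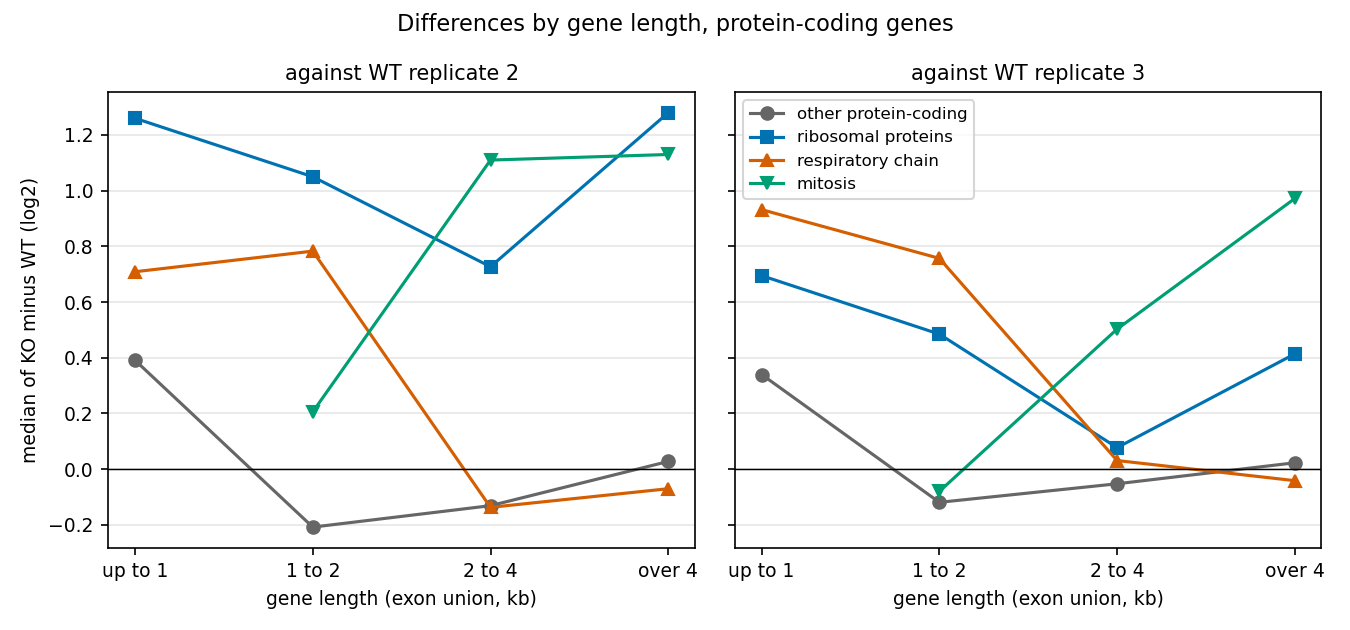
Median KO minus WT (log2) of protein-coding genes by exon length in kilobases, against WT replicate 2 (left) and WT replicate 3 (right), for ribosomal, respiratory, mitosis and all other genes. Genes of up to 1 kb outside the lists had medians of 0.39 and 0.34, respiratory genes lie near 0 above 2 kb, and mitosis genes are highest above 4 kb.

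Part of the genes of the early response to stimulation lay below both WT libraries in KO. Of 34 tested immediate early genes, 15 were below both WT libraries (44.1%, background 15.0%) and 1, the heat-shock gene Hspa1b, was above both. The list's median was -0.35 log2, with -0.19 against WT replicate 2 and -0.40 against WT replicate 3, and -0.16 after centring on the cDC2 list. The KO mean was above WT replicate 2 for 14 of the 34. The 15 included the AP-1 subunit genes Fos, Fosb, Jun, Junb and Jund, and none was separated. Egr1, an early growth response factor, was at 4.47 and 4.22 log2 RPKM in WT against 3.60 and 3.70 in KO. Rhob, a small GTPase, was at 4.43 and 4.87 in WT and 3.37 and 3.89 in KO. Zfp36l1, which marks messenger RNA for decay, was at 4.94 and 4.88 in WT and 4.22 and 4.33 in KO. For these KO minus WT was -1.02 to -0.64, with standard errors of 0.21 to 0.31, and no KO library reached a WT library. Ier3 was at 3.69 and 3.85 in WT and 2.62 and 3.14 in KO.

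Targets of NF-kB and of glucocorticoids had the same direction. Of 24 NF-kB feedback and target genes, 8 lay below both WT libraries (33.3%, background 15.0%) and none above both (background 16.1%). The median was -0.25 log2, with -0.50 and -0.27 against WT replicates 2 and 3, and -0.0632 after centring on the cDC2 list. Nfkbia, the inhibitor that ends NF-kB signalling (chromosome 12, 55489410 to 55492647), was at 8.45 and 8.52 log2 RPKM in WT against 7.71 and 7.66 in KO (-0.80 ± 0.24). The WT libraries, so unlike in lymphocyte genes, were here closer to each other than to either KO library. Tnf was at 3.59 and 3.99 in WT and 2.98 and 3.13 in KO, and Gadd45b at 4.46 and 3.83 in WT and 2.77 and 3.37 in KO. Of 11 glucocorticoid-responsive genes, 5 lay below both WT libraries (45.5%, background 15.0%) and none above both, with a median of -0.44, and -0.25 after centring on the cDC2 list. Ddit4, an inhibitor of mTOR complex 1 (chromosome 10, 59949669 to 59951834), was the separated one, at 5.62 and 4.72 in WT and 3.46 and 3.66 in KO (-1.61 ± 0.38). Fkbp5, a chaperone partner of the glucocorticoid receptor, was at 3.72 and 2.84 in WT and 1.91 and 2.27 in KO. Tsc22d3, which encodes GILZ, was at 8.39 and 8.16 in WT and 7.65 and 7.58 in KO. Per1, a clock gene, was at 5.57 and 5.06 in WT and 4.11 and 4.84 in KO. No WT value of the 4 lay as low as any KO value of the same gene.

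**Figure D5:**
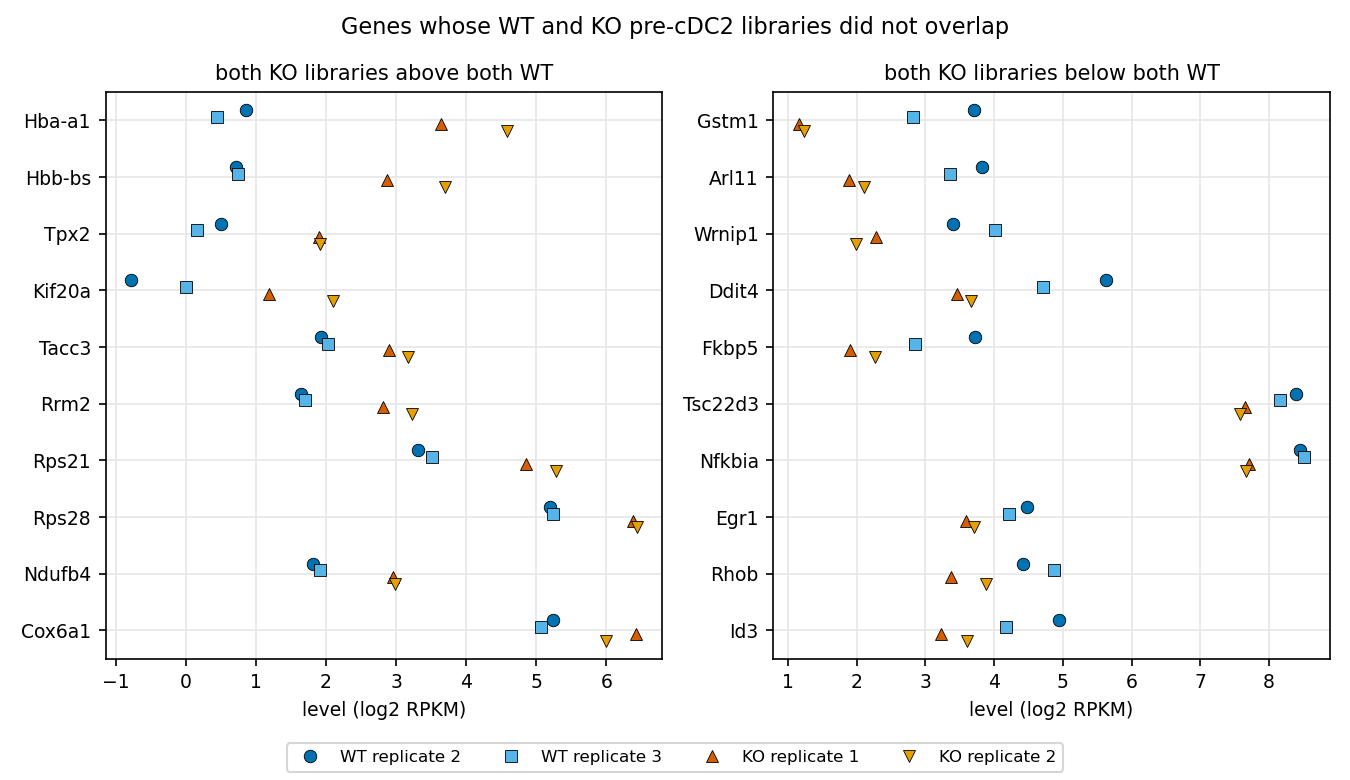
Level in log2 RPKM of 20 genes (rows) in each library, with genes higher in KO on the left and lower in KO on the right. No WT symbol overlaps the KO symbols of its row, and Hba-a1 and Gstm1 show the widest gaps of the left and right panels.

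Of protein-coding genes, 10069 were tested, and 60 were separated upward and 39 downward, of which 21 and 9 averaged 1 log2 RPKM or more. Gstm1, a glutathione transferase (chromosome 3, 108012255 to 108017973), was at 3.71 and 2.83 log2 RPKM in WT against 1.16 and 1.23 in KO, a difference of -2.07 ± 0.41. Arl11, a small GTPase of the ARF family, was at 3.83 and 3.35 in WT and 1.89 and 2.11 in KO. Wrnip1, a partner of the Werner helicase, was at 3.41 and 4.01 in WT and 2.29 and 2.00 in KO. For all 3, each KO library lay more than 1 log2 below each WT library. Trpt1, a transfer RNA phosphotransferase, was at 2.21 and 2.57 in WT and 0.78 and -0.11 in KO. Nthl1, a DNA repair glycosylase, was at 2.73 and 2.77 in WT and 1.60 and 0.37 in KO. Igfbp7, a secreted protein that endothelium makes in quantity, was at 4.72 and 3.05 in WT and 0.54 and 1.97 in KO. Like the endothelial markers, it was highest in WT replicate 2. Its KO minus WT replicate 3 was -1.80 log2, where the 7 stromal and endothelial markers had a median of 0.42.

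Of the sheddases and their partners, 19 genes were tested, 6 lay below both WT libraries (31.6%, background 15.0%) and none above both. Bace2, an aspartyl protease related to beta-secretase, was the separated one, at 1.66 and 0.78 log2 RPKM in WT against -1.99 and -1.82 in KO, where it had 9 reads in each library. Rhbdf1, an inactive rhomboid that carries ADAM17 to the surface, was at 1.16 and 1.96 in WT and -1.20 and 0.68 in KO. Timp2, an inhibitor of metalloproteinases, was at 1.60 and 0.06 in WT and -0.92 and -1.07 in KO. All 3 were low genes, and KO replicate 2 had more Rhbdf1 than KO replicate 1. Bace2 and Timp2, both counted among the 6, passed the filter through the WT libraries only. The others below both were the protease genes Furin and Pcsk7 and the tetraspanin gene Tspan17. The list's median was -0.35 log2, with -0.74 against WT replicate 2 and -0.05 against WT replicate 3.

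Immunoglobulin V segments gave some of the widest gaps. Ighv7-3 had no read in either WT library but 624 and 416 reads in KO libraries, at least 228-fold higher against a floor of 3 reads per library. It had the smallest limma adjusted p of the comparison (0.0504). Both WT values were the same value for 0 reads, so the WT libraries gave no measured spread to this p-value. The segment passed the filter through the KO libraries only. Igkv12-41 had no WT read but 417 and 231 reads in KO libraries, at least 141-fold higher, and Igkv8-24 no WT read but 330 and 127 in KO libraries, at least 98.7-fold higher. Igkv1-135 was the reverse, with 343 and 169 reads in WT and none in KO, at least 61.9-fold lower. Such segments are joined in single B cells and passed to their clone. Of 23 V segments tested, 17 had no read in 1 library and at least 100 in another. B cell markers averaged 3.45 and 3.44 log2 RPKM in WT against 3.33 and 3.44 in KO. Plasma cell markers were not so even, at 0.36 in WT replicate 2 and 3.90 in WT replicate 3, against 2.73 and 3.68 in KO. Igkc, which is in the B cell list, had 619 and 6848 reads in WT against 3269 and 3189 in KO. Igha had 7 and 10861 reads in WT against 4545 and 3603 in KO. WT replicate 2 was thus low in immunoglobulin RNA of these genes.

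Other gene groups depended on which WT library was used. The 27 plasmacytoid DC markers had medians of -0.89 log2 against WT replicate 2 and 0.31 against WT replicate 3, and Siglech, a lectin of these cells, was at 7.83 and 6.29 log2 RPKM in WT against 6.22 and 6.81 in KO. The 18 monocyte markers had medians of -1.01 and 0.37, and the chemokine receptor gene Ccr2 was at 7.31 and 6.39 in WT and 6.96 and 7.02 in KO. The 23 genes of cholesterol synthesis had medians of -0.88 and 0.09. The 17 Toll-like receptor genes had -0.74 and 0.21, and the 30 type I interferon response genes -0.47 and -0.01. The 19 glycolysis genes had a median of -0.06 against WT replicate 2 and one near 0 against WT replicate 3. Ly6c1, a Ly6C gene that endothelium also uses, was at 4.62 and 1.72 in WT and 1.25 and 1.46 in KO.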

How the data were processed

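RNA from 4 pre-cDC2 libraries (2 WT, 2 KO) was compared, of 10 libraries in the series. Per the labels' protocols, RNA from PicoPure columns was amplified by SMARTSeq v2 with ERCC spike-ins and sequenced in paired ends (Illumina HiSeq). The submitters' processing notes name GRCm38 (mm10), STAR 2.3, featureCounts 1.5.0, edgeR and R 3.3.3. The annotation, the strand setting and the sort are not given in the sources used, so overlapping and antisense genes cannot be told apart.

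The deposited values are log2 RPKM made by the authors. Solved with GENCODE release 21 exon lengths, all 196140 values of 49035 genes gave whole reads within 0.001, and reads were recovered for the other 3515 genes too. These reads served for totals, floors and 1 alternative. PCR reads carry no molecular identifiers here, so floors cover counting error only.

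Genes above 0 log2 RPKM in at least 2 of the 4 libraries were fitted with limma 3.58.1 in R 4.3.3 as 2 group means, with eBayes and a trend, 2 residual and 2.19 prior degrees of freedom, two-sided tests and Benjamini-Hochberg adjustment over 12856 genes (threshold 0.05). No further pseudocount was added. With 2 libraries a group, an exact permutation test cannot reach this threshold. The procedure was tested on simulated data. Separation by 1 log2 and list medians are descriptions without a test.

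The comparison and the 35 gene lists (829 genes, 691 tested) were chosen with earlier results of these data known. Named were genes with a limma call, the 10 widest separated genes per direction averaging 1 log2 RPKM or more and with no predicted name, 2 to 4 members of each list by p, 39 fixed genes (37 tested) and genes by which WT replicate 2 stood apart. Not every gene this rule allows is described.

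The 14 alternatives were filters, 1 RPKM added before the log2, scalings, variance models, voom on recovered reads, leaving out each library, and, chosen after seeing the data, centring on the cDC2 list.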

Additional observations from a re-analysis of the deposited data

How the results depend on the processing

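No paired analysis was possible because the WT and KO groups share only 1 replicate number. No gene was called in the comparison, and limma called 2 genes higher without a filter, 1 after centring on library medians, 1 with robust eBayes, and 3 higher and 1 lower after centring on the cDC2 list. Leaving out 1 library at a time gave 0 to 380 genes called higher and 0 to 48 called lower, with the highest counts, 380 and 48, without WT replicate 3, where WT replicate 2 stands alone and is assumed to vary like KO. Separated genes, 212 higher and 123 lower, became 714 and 701 without a filter, 32 and 19 with a filter of 1 log2 RPKM in at least 3 libraries, and 82 and 33 with 1 RPKM added before the log2. Leaving out 1 library gave 385 to 1672 separated higher and 339 to 791 lower, where fewer libraries have to be parted.

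Direction was followed for 82 of the named genes, and 61 of them kept it under all 14 alternatives. The other 21 changed sign, 14 of them only without a WT library. Leaving out 1 library gave these lowest and highest KO minus WT values in log2. Adam10 had -0.35 to 2.42, Adam17 -0.16 to 0.24, Flt3 -1.05 to 0.63, Csf1r -1.16 to 0.84, Csf2rb -0.96 to 0.84 and Kit -1.0 to 0.49. Irf4 had -0.89 to 0.81, Irf8 -0.99 to 0.30, Klf4 -1.37 to 0.23, Zeb2 -0.90 to 0.67, Zbtb46 -0.98 to 0.24, Notch2 -0.62 to 0.40 and Id2 -0.28 to 3.06. Sirpa had -1.12 to 0.47, Cx3cr1 -1.06 to 0.34, Cd209a -1.58 to 0.11, Siglech -1.32 to 0.22, Ccr2 -0.32 to 0.60, Ly6c2 -0.28 to 0.11, Cd3d -0.0792 to 4.70 and Lck -0.16 to 4.02. Centring on library medians gave Adam17 -0.0172, and quantile normalization gave Ly6c2 0.25. With voom, Csf2rb was at 0.0185 and Irf4 at 0.0385. Centring on the cDC2 list gave Csf1r 0.0303, Csf2rb 0.128, Irf4 0.151, Zeb2 0.0767, Notch2 0.0802 and Ly6c2 0.103. The cause was not tested.

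Of 34 list medians, 12 kept their sign under all 14 alternatives. Mitosis ranged from 0.58 to 1.14 log2, erythroid markers from 0.37 to 2.10, ribosomal proteins from 0.38 to 0.88, respiratory genes from 0.42 to 0.72, immediate early genes from -0.41 to -0.16, NF-kB targets from -0.50 to -0.06 and glucocorticoid-responsive genes from -0.77 to -0.25.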

Other observations

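Small RNA genes and pseudogenes made up much of the separated set. Of 199 miRNA genes tested, 20 were separated higher in KO and 21 lower, which is 10.1% and 10.6%, against 0.596% and 0.387% of protein-coding genes. Such short genes can be separated on a few reads. Mir28a had 1 and 0 reads in WT against 7 and 5 in KO. Mir1957a had 4 and 4 reads in WT against 1 and 1 in KO. The part of counting error in these shares was not tested. Of 116 snRNA genes, 14 were separated higher and 7 lower, and of 753 processed pseudogenes 42 and 20. T cell receptor V and J segments, 146 of which were tested, had 9 separated higher and 0 lower. Those higher were 5.06% of the V and 7.46% of the J segments, against 1.65% of all genes, where 0.957% were lower. Of the 146 segments, 75 had no read in at least 1 library. Traj46 was separated on 0 and 2 reads in WT against 6 and 15 in KO. WT replicate 2 also had far lower T cell markers than the other libraries.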
